A study of Mus musculus with 4 samples.

Results

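The genes described here encode cytokines, chemokines and the receptors of both. They were chosen by name from the array's annotation: every gene whose symbol starts with Il and a digit, Tnfsf, Tnfrsf, Ifn, Cxcl, Cxcr, Ccr and a digit, or Ccl and a digit, with the chemokines Ccl6, Ccl8, Ccl9 and Ccl17 left out, and with values on all 4 arrays. This gave 44 genes on 53 probes, of 9153 named genes on 12532 probes that had values on all 4 arrays. The names alone fitted 49 genes on 62 probes, and 5 of these (Il4, Il6st, Ccl25, Tnfsf8 and Tnfsf10) had no probe with a value on every array. By role the 44 were 10 chemokines, 3 chemokine receptors, 8 interleukins and other secreted Il proteins, 7 interleukin receptors, 2 ligands and 11 receptors of the TNF superfamily, and 3 interferon receptors. The symbol rule also brought in Il4i1, a secreted enzyme that breaks down amino acids, and Il18bp, a secreted binding protein, which are not cytokines.

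Each of the 4 dual-colour arrays set lung RNA of BALB/cJ mice against a pool of lung RNA from 6 control animals. The mice had first been sensitized with ovalbumin, the egg white protein that serves as allergen in many mouse models, and were later challenged with it. The controls were non-sensitized mice kept in the same air, which was particle-free air on 2 arrays and air containing UCP on the other 2 (the labels do not spell UCP out). In each air the challenged lung carried Cy5 on array 1 and Cy3 on array 2. Sensitization and challenge came together in every challenged sample, so their effects cannot be told apart, and "challenge" below means both. The labels give no ages or times, and they leave it open whether different animals were used for the 2 arrays of each air. P-values therefore reflect the variation from array to array, which may be technical, and nothing of the variation among the pooled controls.

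All values are log2 ratios of challenged lung over control pool, so 0 means equal and 1 means a doubling. The 4 arrays run in the same direction, which was read from the values. The overall sign is likely only, resting on the usual order of the dyes and on genes that are well known to be high in allergic lungs of mice, such as Chil3, a chitinase-like protein of macrophages (5.45, 5.32, 5.83 and 5.72 on the arrays, in the order array 1 and 2 of particle-free air, then array 1 and 2 of UCP air, as wherever 4 values follow one another below). The arrays held values for 19349 to 19832 probes, with medians between -0.07 and 0.02. Pairs of arrays correlated weakly over all 9153 genes (Pearson correlation 0.10 to 0.19, Spearman correlation 0.16 to 0.32). With so few arrays the precision of each value is limited. The ratios carry no level, so the lung origin of the RNA could not be checked by level: the alveolar markers Sftpc and Ager and the ciliated cell factor Foxj1 averaged 0.07, 0.18 and 0.01 and Sftpb -0.88. Markers of neighbouring organs also differed between the arrays. Measured markers of heart muscle (7 of 8 listed) had array means of 0.22, -0.06, -2.69 and -2.54. Of these, Nppa (0.38, -0.17, -5.72 and -5.91) was lower in limma's test over all genes (adjusted p = 0.0491). Measured markers of liver (8 of 9) had array means of 3.32, 2.32, 0.65 and 0.07. Those of fat (5 of 8, all averaging below 0, with Gpd1 and Car3 lower in limma's test over all genes) had -1.06, -1.37, -1.72 and -1.95. In whole lung, a change in the number of cells of a type and a change in RNA per cell cannot be told apart. The share of neighbouring tissue in the samples and in the control pools was not tested.

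Cytokines are secreted proteins through which immune, epithelial and stromal cells instruct one another, and chemokines are the cytokines that attract leukocytes along a gradient. Interleukin and interferon receptors mostly signal through JAK kinases and STAT factors, the receptors of the TNF superfamily through TRAF adaptors and NF-kB, and chemokine receptors through G proteins. In allergic airway disease, type 2 helper T cells and innate lymphoid cells release cytokines that drive mucus, eosinophils and alternatively activated macrophages, and the chemokines of those macrophages and of dendritic cells draw more type 2 cells into the lung.

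As a group the 44 genes lay where other genes lay. Their averaged log2 ratios had a median of 0.03 and ran from -0.88 (Il18r1) to 1.03 (Ccl22), against a median of -0.01 over all 9153 genes tested, and 23 of the 44 lay above 0, a share of 52.3% beside 48.3% of all genes. The middle of the set, from -0.24 to 0.21 between the lower and the upper quartile, was also that of all genes (-0.23 to 0.20). The median SD over the 4 arrays was 0.34 for the set and 0.35 for all genes, larger than most of the averaged ratios. No gene of the set passed limma's test over all genes at an adjusted p of 0.05, in the averaged effect, where 0.0983% of all genes passed, in particle-free air (0.0109%), in UCP air (0.0219%) or in the difference between airs (0%). At an unadjusted p under 0.05 limma gave 8 members in the averaged effect, 18.2% of the set beside 15.6% of all genes. Of these, 6 lay higher (Ccl22, Ccl12, Cxcl1, Il17ra, Tnfrsf13b and Tnfrsf18) beside 8.06% of all genes, and 2 lay lower (Il17rd and Tnfrsf13c) beside 7.55%. The smallest adjusted p of a member was 0.128, for Ccl22.

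**Figure D1:**
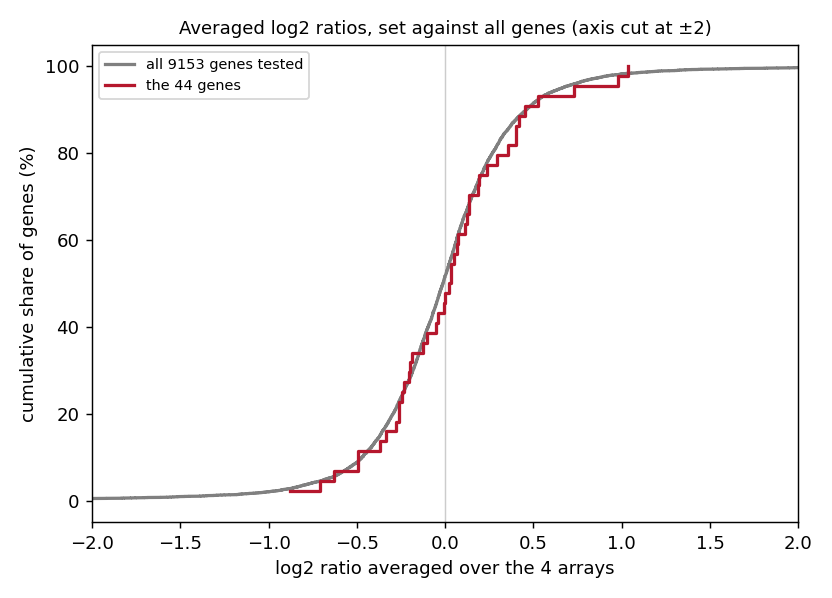
Cumulative share of genes (%) against the log2 ratio averaged over the 4 arrays, for the 44 genes and for all 9153 genes tested; the axis is cut at -2 and 2, outside which only other genes lie. The 2 curves run close together, with medians of 0.03 and -0.01.

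Agreement in sign over the 4 arrays was more frequent on the high side. Of the 44 genes, 11 lay above 0 on all 4 arrays, 25.0% beside 14.2% of all genes, and 3 lay below 0 on all 4, 6.82% beside 14.1%. The 11 were the chemokines Ccl12, Ccl22 and Cxcl1, the chemokine receptor Ccr7, Il1b, the receptors Il3ra, Il17ra, Tnfrsf13b, Tnfrsf18 and Ifngr1, and the ligand Tnfsf13. The 3 were Cxcl12, Il16 and Tnfrsf13c, each the average of more than 1 probe. For each of the 3, at least 1 probe lay above 0 on an array. At 1.5-fold, 1 member (Ccl22) was higher on all 4 arrays (2.27% beside 1.16% of all genes) and 0 were lower (beside 1.02%). Without array 2 of particle-free air Ccl12 joined Ccl22, giving 2, and without array 2 of UCP air 1 member, Il17rd, was lower on all the others. The left-out chemokines lay far above the set, with averaged ratios between 1.95 and 3.36 for Ccl17, Ccl6, Ccl8 and Ccl9, so the highest chemokine ratios of these lungs are not in the set.

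**Figure D2:**
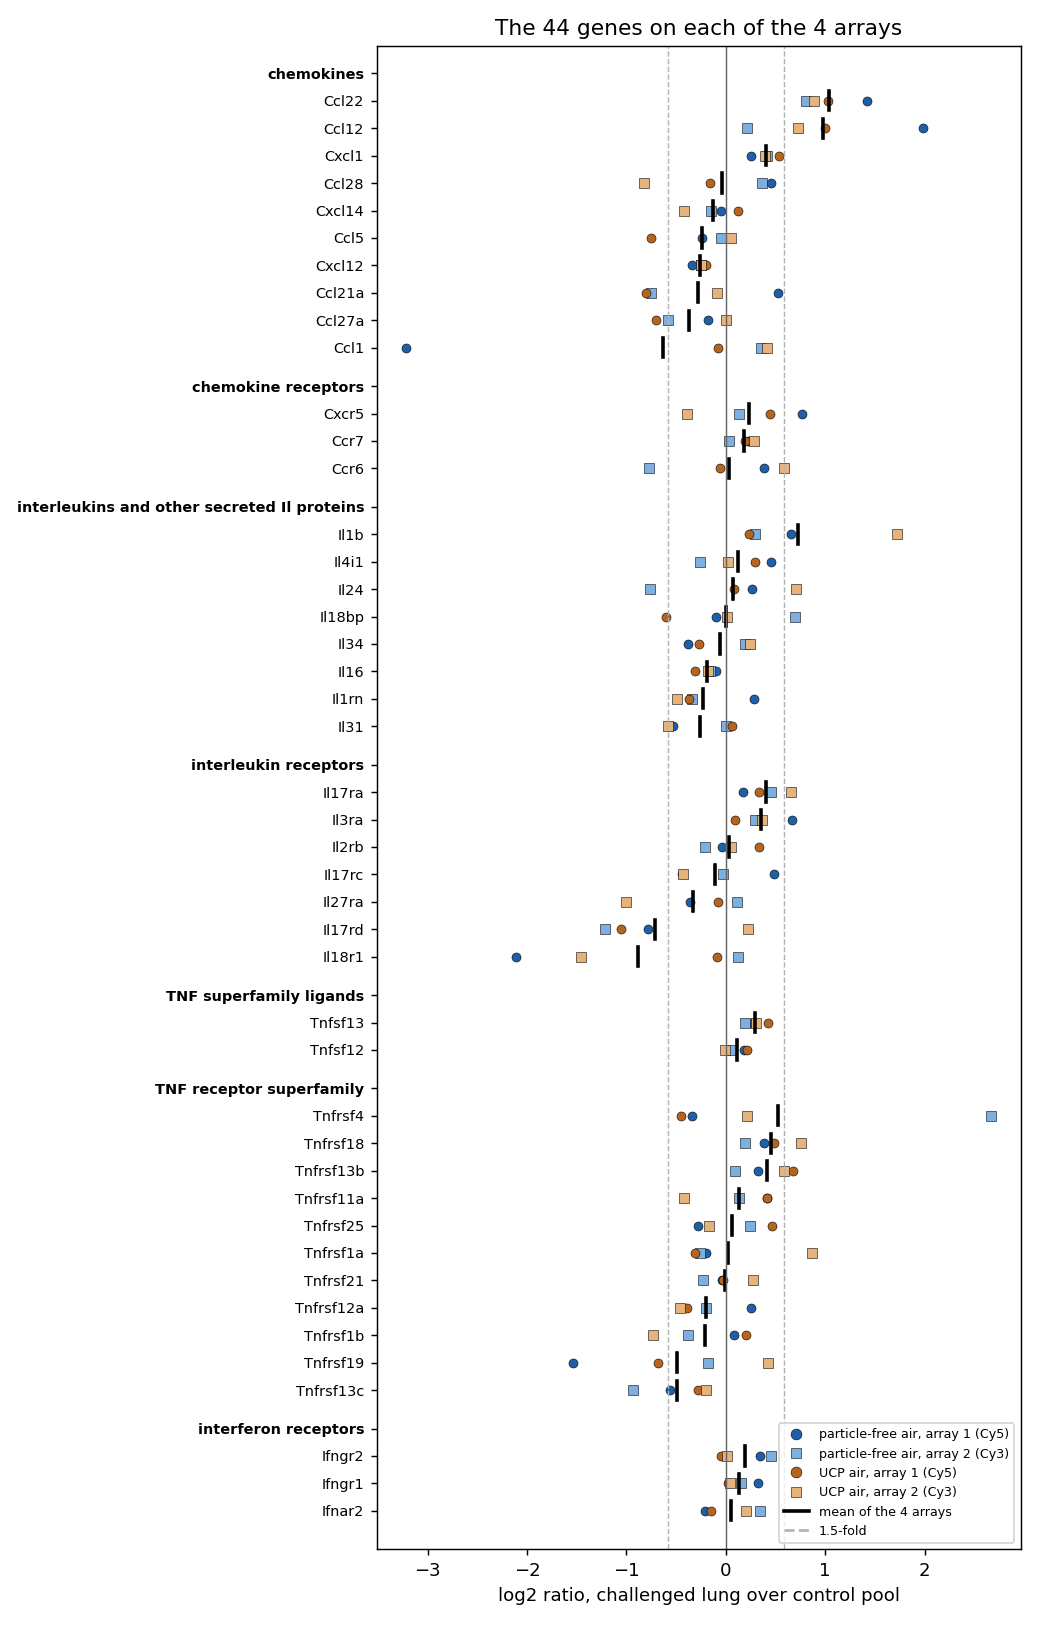
Log2 ratio of challenged lung over control pool for each of the 44 genes on each of the 4 arrays, ordered by role and by mean; symbols are single arrays, black bars the mean of the 4, dashed lines 1.5-fold. Ccl22 is the only gene with all 4 arrays beyond the upper dashed line, and single arrays stand far from the others for Ccl1 (-3.22) and Tnfrsf4 (2.67).

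Among the chemokines of the set, Ccl22 and Ccl12 had the highest averaged ratios of all members, while 7 of the 10 averaged below 0 (median -0.18). The 4 chemokines left out by name all averaged above 0 (median 2.70). The count and median of the 10 therefore do not describe all measured chemokines. Ccl22, made by macrophages and dendritic cells and recognised by CCR4 on type 2 helper T cells, had log2 ratios of 1.42 and 0.80 without particles and of 1.03 and 0.89 with UCP. The 4 values overlapped between airs and averaged 1.03 ± 0.27 (SD, n = 4), or 2.05-fold, with a 95% interval of the log2 ratio of 0.59 to 1.48 (limma adjusted p = 0.128). Ccl12, a monocyte attractant that acts through CCR2, lay at 1.98 and 0.21 in particle-free air and at 1.0 and 0.73 in UCP air. It was above 0 on 4 of 4 arrays with a wide spread, 0.98 ± 0.74 (SD, n = 4; limma adjusted p = 0.286), and averaged 0.54 without array 1 of particle-free air. Cxcl1, a neutrophil attractant that acts through CXCR2, was less high but the arrays lay close: 0.26, 0.41, 0.54 and 0.40 (0.40 ± 0.12, SD, n = 4; limma adjusted p = 0.282).

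The bases before the start sites of Ccl22, Ccl12, Cxcl1 and Il1b are shown because these are the 3 chemokines and the 1 interleukin that lay above 0 on every array. They are the 250 bases upstream of the start in RefSeq (GRCm38.p6), at chr8:94745434-94745683, plus strand for Ccl22, chr11:82101595-82101844, plus strand for Ccl12, chr5:90890995-90891244, plus strand for Cxcl1 and chr2:129371140-129371389, minus strand for Il1b. For Il1b the start is that of the promoter table, which lies inside the gene as annotated, so 25 of its 250 bases fall within the gene. Capitals mark matches to an NF-kB motif (GGG and CC with any 5 bases between them) or to a STAT6 motif (TTC and GAA with any 4 bases between them), each searched on both strands.
Ccl22: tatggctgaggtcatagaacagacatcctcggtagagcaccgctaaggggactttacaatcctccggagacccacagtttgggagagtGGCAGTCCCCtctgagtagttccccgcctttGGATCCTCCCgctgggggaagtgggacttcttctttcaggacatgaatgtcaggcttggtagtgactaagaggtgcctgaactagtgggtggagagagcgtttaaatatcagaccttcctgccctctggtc
Ccl12: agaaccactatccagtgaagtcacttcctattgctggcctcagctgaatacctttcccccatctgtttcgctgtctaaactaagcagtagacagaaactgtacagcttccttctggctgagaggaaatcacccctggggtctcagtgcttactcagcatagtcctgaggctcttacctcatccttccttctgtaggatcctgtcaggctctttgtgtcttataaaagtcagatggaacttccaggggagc
Cxcl1: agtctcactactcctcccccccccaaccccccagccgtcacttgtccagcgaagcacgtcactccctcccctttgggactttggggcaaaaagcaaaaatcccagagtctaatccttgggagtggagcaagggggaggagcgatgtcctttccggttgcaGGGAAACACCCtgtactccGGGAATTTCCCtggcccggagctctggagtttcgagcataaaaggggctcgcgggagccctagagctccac
Il1b: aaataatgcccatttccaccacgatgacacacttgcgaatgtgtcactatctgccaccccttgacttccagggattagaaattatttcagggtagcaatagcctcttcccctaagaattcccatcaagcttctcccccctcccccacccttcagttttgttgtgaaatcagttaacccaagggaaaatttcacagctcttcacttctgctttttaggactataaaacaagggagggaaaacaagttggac
The Ccl22 stretch held 2 NF-kB matches, at 162 to 153 and 131 to 122 bases before the start. The Cxcl1 stretch held 4, which overlap in pairs because each site reads on both strands, from 90 to 80 and from 71 to 61 bases before the start. The Ccl12 and Il1b stretches held no match to either motif, and each had a TATAAA at 31 to 26 bases before the start on the gene's own strand. The NF-kB letters are loose: they occur in 45.8% of all 32851 RefSeq windows of this length and in 28 of the 46 windows of the 35 members that the table holds (60.9%). The STAT6 letters occur in 5.85% of all windows and in 5 of the 46, and in none of the 4 printed here. The AP-1 letters TGANTCA, also read on both strands, occur in 6.75% of all windows and in 4 of the 46, and TATAAA on the gene's own strand in 7.59% and in 2 of the 46. A match is a description of the letters and not of binding, and the arrays carry no measure of it.

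The other 7 chemokines of the set averaged near or below 0. Ccl28 averaged -0.04, above 0 on both arrays of particle-free air and below 0 on both of UCP air, with values given below. Cxcl12, a stromal chemokine that holds leukocytes through CXCR4, lay closely together at -0.34, -0.25, -0.20 and -0.25 (-0.26 ± 0.06, SD, n = 4; limma adjusted p = 0.406). Ccl27a, a ligand of CCR10, lay at -0.18 and -0.59 in particle-free air and at -0.71 and 0.00 in UCP air. Ccl21a, which guides cells with CCR7 into lymphoid tissue, lay at 0.52 and -0.75 in particle-free air and at -0.80 and -0.08 in UCP air. For both genes the arrays overlapped between airs and reached from clearly below 0 to 0 or above it. Ccl5, an attractant of T cells and eosinophils, ran from -0.75 to 0.06 and Cxcl14, a chemokine of epithelium, from -0.42 to 0.12. Ccl1, the ligand of CCR8, averaged lowest of the chemokines at -0.63 ± 1.74 (SD, n = 4), but this rests on array 1 of particle-free air at -3.22. The others lay at 0.36, -0.08 and 0.41, and without that array the average was 0.26.

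The 3 chemokine receptors averaged above 0 by small amounts (median 0.18). Ccr7, the receptor that takes dendritic cells and T cells to lymph nodes, lay at 0.23, 0.03, 0.19 and 0.28, above 0 on 4 of 4 arrays (limma adjusted p = 0.543). Its measured ligand Ccl21a averaged -0.28. Cxcr5, the receptor of follicular B cells, lay at 0.76 and 0.14 in particle-free air and at 0.45 and -0.39 in UCP air. Ccr6, the receptor for Ccl20 on memory and type 17 T cells, lay at 0.38, -0.78, -0.06 and 0.58, so its arrays disagreed in sign in both airs.

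Of the interleukins and other secreted Il proteins, Il1b lay highest. Il1b, the inflammasome-dependent cytokine of myeloid cells, had log2 ratios of 0.66, 0.30, 0.24 and 1.72. It was above 0 on 4 of 4 arrays, averaging 0.73 ± 0.69 (SD, n = 4; limma adjusted p = 0.337), with array 2 of UCP air far above the rest and an average of 0.36 without it. Il1rn, the antagonist that blocks the IL-1 receptor, lay at 0.28 and -0.34 in particle-free air and at -0.38 and -0.49 in UCP air, averaging -0.23 ± 0.35 (SD, n = 4). Ligand and antagonist thus had averages of opposite sign, and neither passed the test. Of 8 neutrophil markers 7 averaged above 0, beside 48.3% of all genes, and 5 lay above 0 on all 4 arrays, beside 14.2%. Their median was 0.72, from -0.08 for Ltf to 1.64 for Lcn2, with Camp at 1.19 and Ngp at 1.33. The means on the arrays were 0.82, 0.81, 0.52 and 0.88 in the order above. Elane (average 0.43) and Mpo (average 0.19) had arrays on both sides of 0 in each air. Of the macrophage markers 3 of 9 were measured, with Mrc1 at 1.82, Lyz2 at -0.34 and Marco at -0.36. Their part in the ratios of Il1b, Cxcl1, Ccl22 and Ccl12 was not tested.

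The remaining secreted Il proteins had averages within 0.27 of 0. Il16, a T cell attractant that binds CD4, lay below 0 on 4 of 4 arrays, at -0.10, -0.16, -0.31 and -0.18 (limma adjusted p = 0.532). This holds for the average of its 2 probes only. In particle-free air one probe lay at 0.15 on array 2 and the other at 0.10 on array 1. Il31, a cytokine of type 2 T cells linked to itch, lay at -0.54 and 0.01 in particle-free air and at 0.06 and -0.58 in UCP air. Il34, the second ligand of the receptor for macrophage colony-stimulating factor, lay at -0.38, 0.19, -0.27 and 0.25, below 0 on both Cy5 arrays and above 0 on both Cy3 arrays. Dye and replicate number cannot be told apart here. Il24, of the IL-10 family, lay at 0.26, -0.76, 0.09 and 0.71. Il18bp, which traps IL-18, lay at -0.10, 0.69, -0.61 and 0.01, and Il4i1 at 0.45, -0.26, 0.29 and 0.02. Each of these 3 had arrays on both sides of 0. The type 2 cytokines themselves could not be compared. Il4 lacked a value on array 1 of particle-free air, and the naming rule found no probe with Il5, Il9, Il13, Il25 or Il33 as its only symbol.

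Of the 7 interleukin receptors, Il18r1 and Il17rd had the lowest averaged ratios of the set. Il18r1, the binding chain of the IL-18 receptor on type 1 T cells and natural killer cells, averaged -0.88 ± 1.08 (SD, n = 4), from -2.11, 0.12, -0.08 and -1.46. A low and a near-zero array stood in each air, and limma's adjusted p was 0.429. The average ran from -0.32 without array 1 of particle-free air, where Il17rd lay lower at -0.82, to -1.44 without array 2 of that air. Il17rd, an orphan member of the IL-17 receptor family that also restrains growth factor signalling, lay at -0.79 and -1.22 in particle-free air and at -1.06 and 0.22 in UCP air. It averaged -0.71 ± 0.65 (SD, n = 4; limma adjusted p = 0.317), and ran from -0.39 without array 1 of UCP air to -1.03 without array 2, the only array above 0.

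The IL-17 receptor chains did not share a direction. Il17ra, the chain common to the receptors for IL-17A and IL-25, lay at 0.17, 0.45, 0.33 and 0.66, above 0 on 4 of 4 arrays (0.40 ± 0.20, SD, n = 4; limma adjusted p = 0.312). Il17rc, its partner in the receptor for IL-17A, lay at 0.49 and -0.03 in particle-free air and at -0.45 and -0.43 in UCP air. Il3ra, the specific chain of the IL-3 receptor on basophils, mast cells and dendritic cells, lay at 0.67, 0.29, 0.09 and 0.36 (0.35 ± 0.24, SD, n = 4; limma adjusted p = 0.355). Csf2rb2, which encodes a beta chain that pairs with it in the mouse, lay outside the naming rule at 1.05, 0.86, 0.96 and 0.50, and averaged 0.84 (limma adjusted p = 0.146). The other beta chain, Csf2rb, lay at 0.25, -0.14, 0.40 and 0.55 and averaged 0.26 (limma adjusted p = 0.446). Il27ra, a receptor chain that curbs T cell responses, lay at -0.36, 0.11, -0.08 and -1.01. Il2rb, shared by the receptors for IL-2 and IL-15, lay at -0.03, -0.21, 0.33 and 0.05. Of T cell markers, 6 of 11 listed were measured and 5 of them averaged below 0 (median -0.45, from -0.93 for Cd8a to 0.07 for Cd2), with means of 0.08, -0.14, -0.97 and -0.68 on the 4 arrays. Thymus markers, 3 of 8 measured and all averaging below 0, had means of -0.43, -0.27, -1.02 and -1.81 in the same order. Their part in the ratios of receptors carried by T cells was not tested.

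In the TNF superfamily, the system of BAFF and APRIL, which keeps B cells and plasma cells alive, was measured at 3 of its genes. Tnfsf13 (APRIL) lay at 0.25, 0.19, 0.42 and 0.31, above 0 on 4 of 4 arrays (0.29 ± 0.10, SD, n = 4; limma adjusted p = 0.368). Tnfrsf13b (TACI), a receptor of both ligands, lay at 0.33 and 0.09 in particle-free air and at 0.67 and 0.58 in UCP air (0.42 ± 0.26, SD, n = 4; limma adjusted p = 0.277). Tnfrsf13c, the BAFF receptor of resting B cells, lay the other way, at -0.56 and -0.94 in particle-free air and at -0.28 and -0.20 in UCP air. Its average of -0.49 ± 0.33 (SD, n = 4; limma adjusted p = 0.249) joins 2 probes that disagreed. The first gave -1.88, -1.73, -0.66 and -0.65 and the second 0.76, -0.14, 0.10 and 0.26, so the low value rests on the first probe. B and plasma cell markers, 3 of 9 measured, had Pou2af1 at 1.31, Cd22 at 0.36 and Blk at -0.05, and means of 0.84, 0.36, 0.54 and 0.43 on the 4 arrays. Their part in these ratios was not tested.

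The receptors through which T cells are costimulated gave a similar picture of small, uneven ratios. Tnfrsf18 (GITR), abundant on regulatory T cells, lay at 0.39 and 0.19 in particle-free air and at 0.48 and 0.76 in UCP air, above 0 on 4 of 4 arrays (0.45 ± 0.24, SD, n = 4; limma adjusted p = 0.262). T cell markers had array means of 0.08 and -0.14 in particle-free air and of -0.97 and -0.68 in UCP air. Their part in the ratio of Tnfrsf18 was not tested. Tnfrsf4 (OX40), which prolongs type 2 T cell responses, averaged 0.53 ± 1.46 (SD, n = 4) through array 2 of particle-free air at 2.67. Its other arrays lay at -0.34, -0.45 and 0.22, and without that array the average turned to -0.23. Tnfrsf25, the death domain receptor DR3 of T cells, ran from -0.28 to 0.46.

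The receptors for TNF itself and those of tissue cells lay on either side of 0. Tnfrsf1a, the widely expressed TNF receptor, lay at -0.20, -0.26 and -0.31 on the first 3 arrays and at 0.86 on array 2 of UCP air. Tnfrsf1b, the leukocyte TNF receptor, lay at 0.09, -0.38, 0.20 and -0.73, above 0 on array 1 and below 0 on array 2 of each air. Tnf, the ligand of both and no member of the set by name, averaged 0.09. Tnfsf12 (TWEAK) lay at 0.19, 0.06, 0.21 and -0.01, and its receptor Tnfrsf12a at 0.25 and -0.20 in particle-free air and at -0.39 and -0.46 in UCP air. Tnfrsf19, an epithelial receptor, lay at -1.54, -0.17, -0.68 and 0.42 (-0.49 ± 0.83, SD, n = 4), and Tnfrsf21 (DR6) ran from -0.23 to 0.27. Tnfrsf11a, the receptor RANK of osteoclast and dendritic cell differentiation, lay at 0.41, 0.13, 0.42 and -0.42 and averaged 0.13, but 1 of its 2 probes lay above 0 on every array (1.12, 0.56, 0.50 and 0.33) and the other below 0 on 3 of 4.

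The 3 interferon receptor chains averaged between 0.05 and 0.19. Ifngr1, the binding chain of the receptor for interferon gamma, lay at 0.33 and 0.15 in particle-free air and at 0.02 and 0.04 in UCP air. Ifngr2, its signalling partner, lay at 0.35 and 0.46 in particle-free air and at -0.04 and 0.02 in UCP air. In both chains the particle-free arrays lay above the UCP arrays without overlap, while the difference did not pass limma's test (-0.21 with a 95% interval of -0.91 to 0.49 for Ifngr1, -0.42 with -1.11 to 0.27 for Ifngr2, adjusted p = 0.979 for each). Ifnar2, a chain of the receptor for type I interferons, lay at -0.21, 0.35, -0.15 and 0.21 in the average of 3 probes, and the probes differed in sign from one another on each of the arrays of particle-free air and on array 1 of UCP air.

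The next comparison was whether the challenge effect differed between the 2 airs. The median difference, UCP minus particle-free air, was 0.02 for the set and 0.01 for all genes. With limma 0 of the 44 genes passed at an unadjusted p under 0.05, beside 3.93% of all genes, and the smallest adjusted p was 0.979. Both arrays of one air lay above both of the other for 13 members, 29.5% beside 32.3% of all genes, and the 2 airs lay on opposite sides of 0 on every array for 2 members (Ccl28 and Il2rb), 4.55% beside 7.70%. The largest differences without overlap of the airs were in Ccl28, a mucosal ligand of CCR10, with 0.46 and 0.36 in particle-free air and -0.16 and -0.83 in UCP air, at -0.90 (95% interval -1.82 to 0.01; limma adjusted p = 0.979), and in Il17rc at -0.67 (-1.49 to 0.16). Next came Tnfrsf13c at 0.51 (-0.25 to 1.28), Tnfrsf12a at -0.44 (-1.24 to 0.35), Tnfrsf13b at 0.42 (-0.30 to 1.14) and Ifngr2. The Tnfrsf13c value rests on the first of its probes, with a difference of 1.15, while the second gave -0.13. Every one of these intervals includes 0 and reaches values of at least 1.1 in size, so the arrays do not show that the airs acted alike. Markers of heart muscle, liver, thymus and T cells also differed between the airs, with the array means given above. Their part in these differences was not tested. Within particle-free air 3 members had an unadjusted limma p under 0.05 (Ccl22, Il17rd and Tnfrsf13c, beside 11.3% of all genes), and within UCP air 3 (Ccl22, Tnfrsf13b and Tnfrsf18, beside 9.36%).

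**Figure D3:**
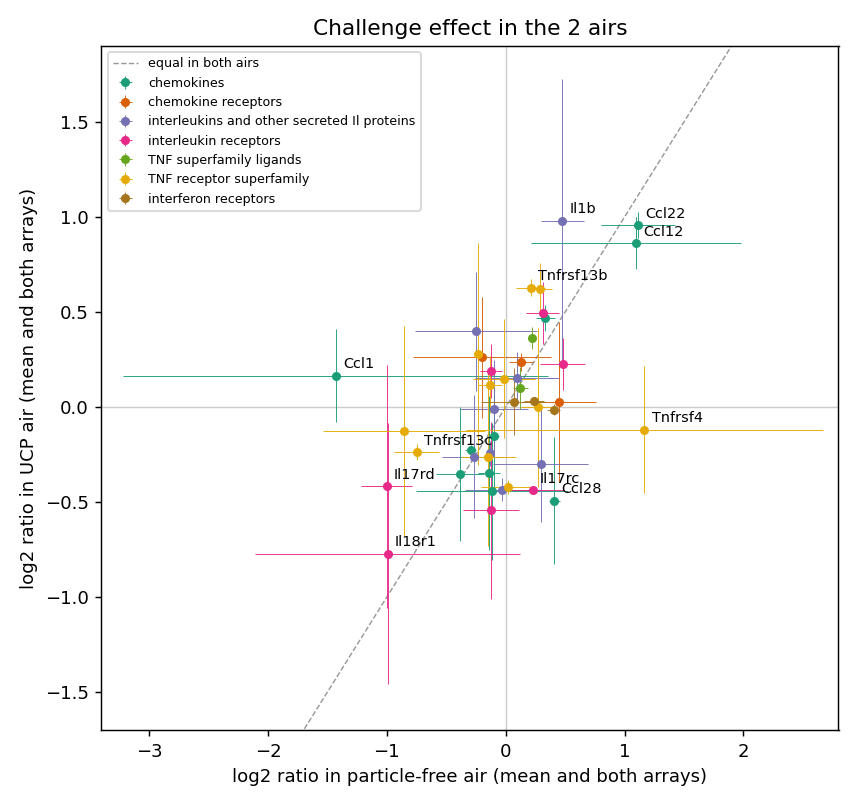
Mean log2 ratio in UCP air against that in particle-free air for the 44 genes, coloured by role; thin lines span the 2 arrays of each air, and the dashed line marks equal ratios. Ccl22 and Ccl12 lie high in both airs, Ccl28 lies at 0.41 in particle-free air and at -0.49 in UCP air, and long lines mark the genes whose 2 arrays disagree, such as Ccl1 and Tnfrsf4 in particle-free air.

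How well 2 measurements of 1 gene matched could be seen in 6 members with more than 1 probe. Their probe means differed by a median of 0.31, beside 0.41 over the 2561 such genes of the array, and by more than 1 in 1 of 6 (Tnfrsf13c). The 3 Cxcl12 probes all averaged below 0 (-0.43, -0.24 and -0.10), yet 2 of them changed sign between arrays, so the closeness of the Cxcl12 values comes after averaging. The probes of Ifnar2 ran from -0.04 to 0.12, those of Il16 from -0.24 to -0.13 and those of Il4i1 from -0.02 to 0.26 in their averages, within the spread of each probe over the arrays.

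**Figure D4:**
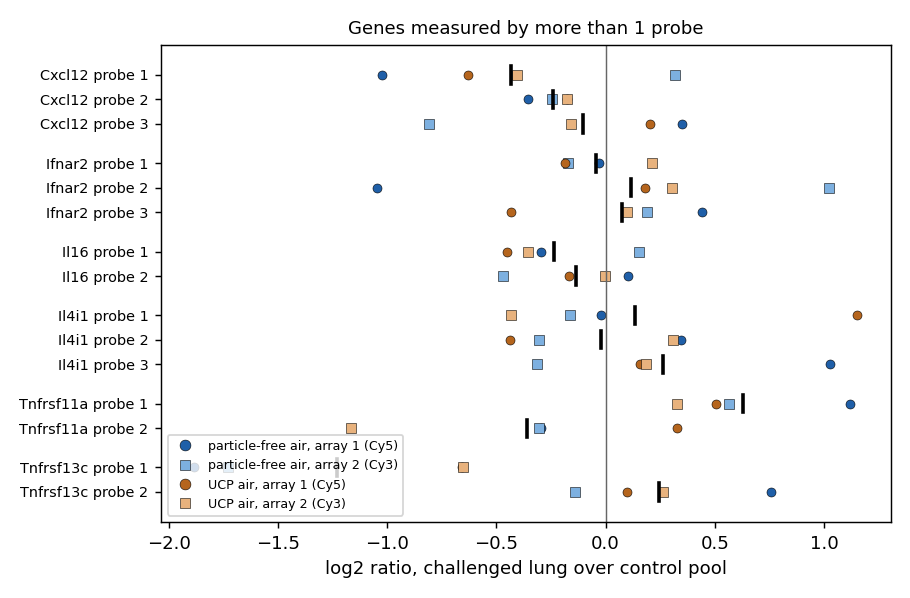
Log2 ratio on each array for the single probes of the 6 genes measured by more than 1 probe; symbols are arrays and black bars the mean of the 4. The 2 Tnfrsf13c probes lie apart, at -1.23 and 0.24 on average.

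The signalling genes behind these receptors were described from fixed lists, with the members left out, and none of their genes apart from the last list passed limma's test over all genes. Of the JAK-STAT and SOCS genes 18 of 25 were measured, 9 above and 9 below 0 (median -0.03). Cish, a feedback inhibitor induced by STAT5, stood out at 0.84, 1.42, 1.51 and 1.5 (limma adjusted p = 0.0946), followed by the related Socs2 at 1.0, 0.42, 0.47 and 0.52 (adjusted p = 0.226). At the other end Socs5 averaged -0.33 and Pias2 -0.29. Of the NF-kB and TNF adaptors 14 of 26 were measured, 5 above and 9 below 0 (median -0.03), from Fadd at -0.84 to Map3k14 at 0.24. Fadd lay at 0.22, 0.40, -0.94 and -3.04, so its low average rests on the arrays of UCP air. Of the IL-1 and Toll adaptors 7 of 12 were measured, 5 above and 2 below 0 (median 0.08). Myd88, the adaptor of IL-1 and Toll-like receptors, lay above 0 on 4 of 4 arrays at an average of 0.31. Irak2 lay below 0 on 4 of 4 arrays at an average of -0.14.

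Of 44 listed cytokine genes that the naming rule does not catch, 14 were measured, 10 above and 4 below 0 (median 0.32), 6 of them above 0 on all 4 arrays and 0 below. Over all genes 48.3% averaged above 0, 14.2% lay above 0 on all 4 arrays and 14.1% below. The mean of the 14 was uneven, at 0.45 and 0.44 on array 1 of particle-free and UCP air and at -0.01 and -0.04 on array 2, where the dyes were swapped. Besides Csf2rb2, the lymphotoxin receptor Ltbr averaged 0.68 and the receptor chain Cntfr 0.70. Cd40, the receptor for T cell help on B cells and dendritic cells, averaged 0.83, with 1.57, 0.25, 1.11 and 0.38 on the arrays. Tslp, an epithelial cytokine that starts type 2 responses, averaged -0.84 with arrays from -2.18 to 0.83. In the list of other chemokine system genes 7 of 19 were measured (median 0.04), with the platelet chemokine Pf4 at 0.94, 0.99, 2.02 and 0.97 (limma adjusted p = 0.142) and the scavenging receptor Ackr4 at -6.20, -0.98, -0.08 and -1.72. Genes known to respond to IL-13 and STAT6 in mouse lung had a median of 1.61 (10 of 17 measured, 10 above 0, and 2 of them, Chil3 and Slc26a4, higher in limma's test over all genes). The overall sign rests in part on these same genes, so their direction is no finding.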

How the data were processed

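The authors deposited 1 table of log2 ratios for 4 dual-colour arrays, with probe annotation from the platform. Per the labels, 20 µg of RNA from individual lungs was labelled with Cy3 or Cy5 and hybridised with a control pool in the second dye. The scanner, the image software and any normalization are not stated in these sources. Each array had a plateau at its largest ratio, above 0 on Cy5 arrays and below 0 on Cy3 arrays, so swapped arrays had already been turned. Brightness was not used here, so dim probes were not filtered.

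Deposited values were used without further centring. Probes with values on all 4 arrays were averaged by gene, and limma 3.58.1 (R 4.3.3) was fitted to 9153 genes with 1 coefficient per air (2 residual and 2.37 prior degrees of freedom). The averaged effect, each air, and UCP minus particle-free air were tested two-sided, with Benjamini-Hochberg adjustment over all genes and a threshold of 0.05. The fit was tested on simulated data whose planted log2 ratios were larger than any averaged ratio of the set. Smaller planted ratios were not simulated. The control pool on an array counts as 1 control sample. The controls were kept in the air of their array, so UCP minus particle-free air also carries any difference between the controls of the airs.

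Members and lists were chosen with earlier results of these data known. Every member could be named. Values on all arrays were given for members 1.5-fold on all arrays, the 4 highest and lowest of each role, and the 6 largest differences between airs without overlap. All 44 Entrez identifiers were found in the RefSeq table. Alternatives were centring, scaling, probe medians, probes on 3 arrays, plateau values, robust moderation, fit by probe, the replicate block and each array left out.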

Additional observations from a re-analysis of the deposited data

Results flagged for a closer look

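Ccl28 and Il2rb lay on opposite sides of 0 in the 2 airs on every array. Ccl28 was at 0.46 and 0.36 in particle-free air and at -0.16 and -0.83 in UCP air. Il2rb was at -0.034 and -0.213 in particle-free air and at 0.331 and 0.05 in UCP air. These are 2 of 44 members (4.55%), beside 7.70% of all genes, and limma's test of the difference did not pass for either (limma adjusted p = 0.979 for both).

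Tnfsf8, the ligand of CD30 on activated lymphocytes, is outside the set because array 1 of particle-free air had no value. Its probe lay at 1.34 on the other array of that air and at 2.13 and 1.72 in UCP air, at least 1.5-fold higher on all 3 arrays with a value. No group held 4 or more arrays, so outlying arrays within a group were not tested.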

How the results depend on the processing

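Limma called 0 members in each of the 4 comparisons under every alternative run, 13 for the averaged effect and 12 for each of the others. The smallest adjusted p of a member ran from 0.109 to 0.525 for the averaged effect, from 0.15 to 0.679 in particle-free air, from 0.25 to 0.999 in UCP air and from 0.294 to 1.0 for the difference. With every array kept and the set at 44 genes, 4 to 8 members had an unadjusted limma p under 0.05 in the averaged effect. With probes on at least 3 arrays the set had 48 genes and 11 such members. With the replicate block, where the replicate number is also the dye orientation, there were 0 calls and 4 members at an unadjusted p under 0.05, against 8 without it. The labels pair the numbers through the dye only, and deviations of same-numbered arrays had a Pearson correlation of 0.06 and a Spearman correlation of 0.12 over genes. The count of members 1.5-fold higher on all arrays was 2 with probes on at least 3 arrays (Ccl22 and Tnfsf8) and 1 to 2 with 1 array left out. The count lower was 0 to 1 with 1 array left out. Where an air was left with 1 array, that array was assumed to vary like the others. Of the 44 averaged ratios, 18 turned sign without 1 array, 3 of these (Cxcl14, Il18bp and Tnfrsf21) also in another setting, and 26 in neither.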

Other observations

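Some cytokine genes had values on part of the arrays only. Il4, the defining type 2 cytokine, had 1 value in particle-free air, 2.47, and lay at 0.28 and 0.13 in UCP air. Il6st, the signalling chain shared by the receptors of the IL-6 family, had 2 probes with a missing value each. The first lay at 0.24 in particle-free air and at -1.24 and -0.91 in UCP air, and the second at -0.47 and -1.07 in particle-free air and at -0.42 in UCP air, so 5 of the 6 values lay below 0. Ccl25, a thymic and intestinal chemokine that acts through CCR9, lay at -2.02 in particle-free air and at 0.15 and -0.36 in UCP air. Tnfsf10, the death ligand TRAIL, had values in UCP air only, 0.05 and -0.04.

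Incomplete probes of members did not always follow the complete ones. A Cxcl14 probe without array 2 of particle-free air lay at 0.59, 0.65 and 0.18, while the complete probe averaged -0.13. An Il16 probe without array 1 of particle-free air lay at -0.38, -0.81 and -0.35, below 0 like the average of the complete probes (-0.19). An Il1rn probe without array 2 of particle-free air lay at -0.36, 0.20 and -0.68.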
